A study of Mus musculus domesticus with 18 samples.

Results

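The oxygen-sensing core of the hypoxia-inducible factor (HIF) pathway was described in the livers of wild house mice from a high and a low altitude. It comprised 9 genes: the prolyl hydroxylase genes Egln1, Egln2 and Egln3, the asparaginyl hydroxylase gene Hif1an, the alpha subunit genes Hif1a, Epas1 and Hif3a, the partner subunit gene Arnt, and Vhl. All probe sets that GEO's platform annotation gives to exactly 1 of these symbols were taken, which made 27 of the 34945 probe sets with 1 gene symbol on the array. A probe set is a group of short oligonucleotides against 1 stretch of a transcript. None of the 27 was shared with another symbol.

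The 18 arrays came from wild-trapped male house mice (Mus musculus domesticus), 1 liver and 1 array per mouse. The high altitude group held 9 mice from La Paz, Bolivia, at 3600 m, and the low altitude group 9 mice from Lima, Peru, at 100 m. Within an altitude the mice were caught at 3 locations, A, B and C, 3 mice at each, and the same letter at both altitudes does not mark the same place. The sources used here give no age and no treatment, and 1 label field gives the laboratory strain C57BL/6J, which goes against the titles and the design text that call the mice wild. City, mouse population and altitude coincided, so their shares in any difference cannot be told apart.

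In normal oxygen, the Egln enzymes hydroxylate prolines of the HIF alpha subunits, using molecular oxygen and 2-oxoglutarate. The Vhl protein binds the hydroxylated subunit and, in a ubiquitin ligase, marks it for the proteasome. Hif1an hydroxylates an asparagine in the products of Hif1a and Epas1 and thereby blocks their coactivators. When oxygen is short, the alpha subunits persist, pair with Arnt and switch on target genes, among which, in cultured cells, are Egln1 and Egln3 themselves. Most of this control acts on protein stability and activity, which these arrays do not measure.

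Values are log2 levels made by the authors with RMA, which compresses weak signals. A level on 1 probe set is not the same amount of RNA as that level on another, so tests compared the altitudes or locations within a probe set, or in the gap between 2 probe sets of a gene. As a rough check of the tissue label, all 9 measured hepatocyte markers lay above the median probe set level, with the median marker at the 99.9th percentile. All 10 endothelial and all 10 Kupffer cell and macrophage markers also lay above the median level, with their median markers at the 79.9th and 93.0th percentiles. Array medians averaged 5.30 ± 0.03 at both altitudes (SD, n = 9 each), and arrays correlated with each other between 0.976 and 0.994. RMA normalizes the arrays to each other, so near-equal medians are no check of their quality. The difference between the 3 prime and 5 prime control probe sets of Actb, a sign of RNA integrity, averaged 1.40 ± 0.32 in high and 1.21 ± 0.17 in low altitude mice (SD, n = 9 each; two-sided p = 0.149 by exact permutation), and mouse high B1 had the largest value, 2.02. In bulk liver, fewer cells of a type and less RNA per cell cannot be told apart.

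The first comparison asked whether transcripts of the oxygen-sensing genes differed between the altitudes. Egln3 was lower in high altitude livers, and no other gene of the 9 passed the test. Egln3 encodes the prolyl hydroxylase also called PHD3, known in cultured cells for its strong induction by low oxygen. On its brighter probe set, 1418649_at, the high altitude mice had 6.69, 6.29 and 6.02 in location A, 6.72, 6.14 and 5.92 in B, and 6.28, 7.03 and 7.33 in C. The low altitude mice had 7.50, 8.00 and 7.85 in A, 7.01, 7.67 and 7.97 in B, and 7.49, 7.82 and 7.38 in C. The groups overlapped only through high C2 and high C3, which lay above low B1, and the low altitude mean exceeded every one of the 9 high altitude values. The log2 difference was -1.14 ± 0.18 (SE, 95% interval -1.51 to -0.77), a 2.21-fold lower level, with limma's adjusted p at 0.00752 over all 34945 probe sets.

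The second Egln3 probe set, 1418648_at, also lay lower at high altitude but did not pass the test. The high altitude mice had 6.20, 6.18 and 6.34 in location A, 6.63, 6.42 and 5.79 in B, and 6.96, 6.20 and 6.82 in C. The low altitude mice had 6.65, 7.44 and 7.00 in A, 6.58, 7.26 and 6.90 in B, and 6.94, 7.02 and 7.06 in C. Here the groups overlapped more widely, with high B1, C1 and C3 inside the low altitude range, though again the low altitude mean exceeded all 9 high altitude values. The log2 difference was -0.59 ± 0.14 (SE, 95% interval -0.89 to -0.29), with limma's adjusted p at 0.0845. It passed without high C1 (log2 difference -0.66, adjusted p = 0.0392) and without the whole of high location C (-0.72, adjusted p = 0.0327). Leaving out any other single mouse or location did not make it pass.

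**Figure D1:**
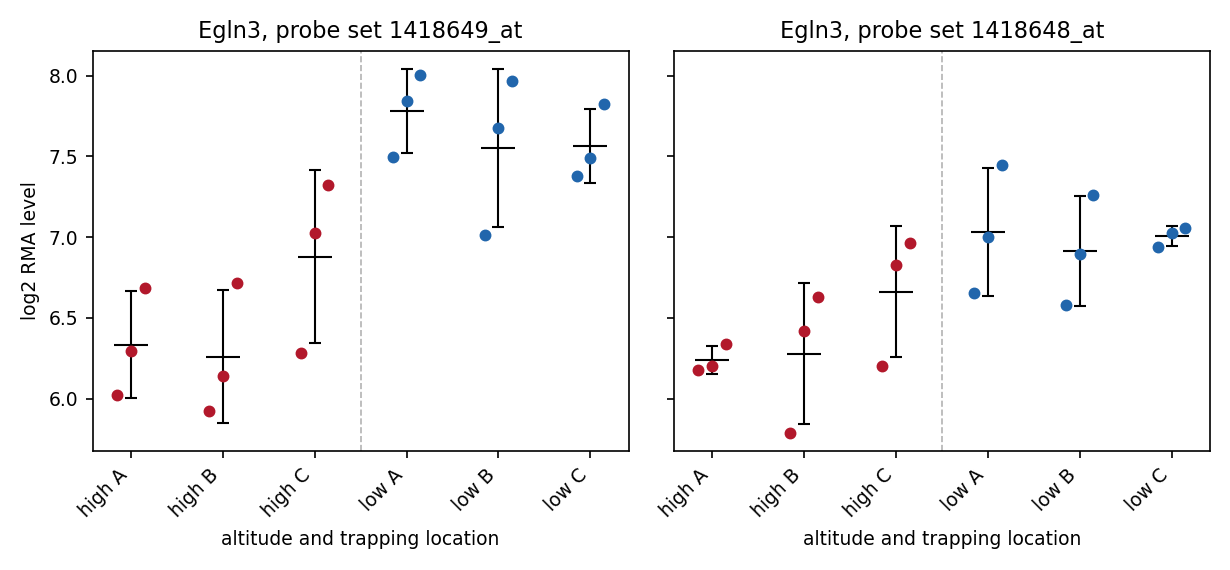
Log2 RMA levels of the 2 Egln3 probe sets in each mouse, by altitude and trapping location, with the mean and SD of each location (n = 3). The 3 high altitude location means lie below the 3 low altitude location means on both probe sets, and high location C lies nearest to the low altitude mice.

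For both Egln3 probe sets the 3 high location means lay wholly below the 3 low location means. On 1418649_at they were 6.33 ± 0.33, 6.26 ± 0.41 and 6.88 ± 0.54 in high A, B and C, against 7.78 ± 0.26, 7.55 ± 0.49 and 7.56 ± 0.23 in low A, B and C (SD, n = 3 each). On 1418648_at they ran from 6.24 to 6.66 in the high and from 6.91 to 7.03 in the low locations. Location means lay apart in this direction for 5 of the 27 probe sets and 7.44% of all, and in the other direction for 3 of the 27 and 6.76% of all. With 1 mean per location in place of the mice, 3 against 3, the difference on 1418649_at no longer passed (limma's adjusted p = 0.179), and neither did that of any other probe set (0 by limma, 2978 at an unadjusted p under 0.05). With mice as the unit it passed without any single mouse (log2 differences from -1.25 to -1.07, adjusted p up to 0.0257) and without any single location (-1.34 to -1.03, adjusted p up to 0.0376). With the Actb difference as a covariate it was -1.05 (adjusted p = 0.0121).

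The 2 Egln3 probe sets differed by unequal amounts between the altitudes. The level on 1418649_at minus that on 1418648_at averaged 0.10 ± 0.47 in high and 0.65 ± 0.25 in low altitude mice (SD, n = 9 each), a change of -0.55 (exact two-sided permutation p = 0.00646). When the same gap was fitted over all 9010 genes with at least 2 probe sets, a fit added after the values were seen, Egln3 did not pass (limma's adjusted p = 0.141); 0.511% of these genes passed, and 10.8% had an unadjusted p under 0.05, Egln3 and Epas1 among them. Both probe sets thus gave negative differences, of 1.51-fold on 1418648_at and 2.21-fold on 1418649_at, and only that on 1418649_at passed. Within an altitude the 2 probe sets correlated at 0.40 over the 9 high and 0.65 over the 9 low altitude arrays.

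**Figure D2:**
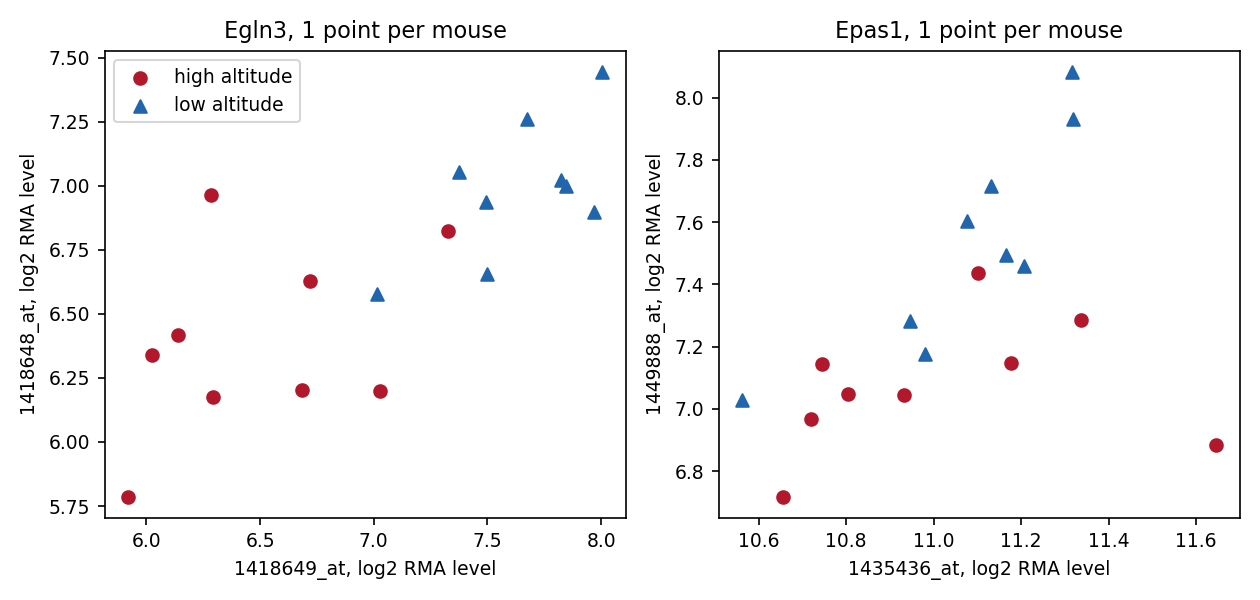
Levels on the brighter probe set (horizontal, log2 RMA) and on the second probe set (vertical, log2 RMA) of Egln3 and Epas1, with 1 point per mouse, high altitude as circles and low altitude as triangles. The Egln3 groups lie mostly apart along both axes with some overlap, the Epas1 groups overlap along the horizontal axis and less along the vertical one, and the circle farthest right in the Epas1 panel is high B1.

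Cell type markers were measured beside the fall of Egln3. Over all 18193 genes 9390 differences were positive and 8803 negative. Of 9 measured hepatocyte markers 0 were called by limma, with 3 positive and 6 negative differences. Only Apob among them had an unadjusted p under 0.05, at -0.25 on the log2 scale (limma's adjusted p = 0.227). The B and plasma cell markers averaged 5.63 to 6.41 per mouse at high and 5.31 to 5.64 at low altitude, with 6 of 8 differences positive, 2 called higher and 3 at an unadjusted p under 0.05, against 0.225% called higher and 11.3% at an unadjusted p under 0.05 over all 18193 genes. These were Jchain and Ighm, named after their values were seen, at 2.34 and 2.05 on the log2 scale (limma's adjusted p = 0.00360 and 0.00966). The Ighm call was lost without high location A, low location B or low location C, with adjusted p up to 0.0564. All 10 Kupffer cell and macrophage markers had positive differences, 0 of them called by limma and 3 at an unadjusted p under 0.05, and averaged 8.75 to 10.15 per mouse at high and 8.53 to 9.72 at low altitude. The part of these cells in the Egln3 difference was not tested. Muscle markers averaged 4.74 to 5.00 per mouse at high and 4.77 to 5.07 at low altitude, and 1 of 8 lay above the median probe set level. Endothelial, cholangiocyte and stellate, erythroid, and pancreas, kidney and adrenal markers had 0 called genes of 10, 9, 4 and 6 measured, with 1, 0, 0 and 0 at an unadjusted p under 0.05. Of these markers 10, 6, 1 and 2 lay above the median probe set level. The 1 endothelial gene was Vwf, at 0.83 on the log2 scale (limma's adjusted p = 0.0745). Of the 10 endothelial differences 6 were positive and 4 negative.

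Egln1 encodes PHD2, the hydroxylase that sets HIF levels in most cells. Its brighter probe set, 1423785_at, ran from 8.30 through a median of 8.51 to 8.98 in high altitude mice and from 7.99 through 8.46 to 8.69 in low altitude mice. The log2 difference was 0.22 ± 0.12 (SE, 95% interval -0.02 to 0.47), with 8 of 9 high values above the low mean and limma's adjusted p at 0.521. The dimmer probe set, 1451110_at, differed by 0.05 ± 0.11 (SE). The interval of the brighter probe set thus held no change and reached a 1.38-fold higher level.

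Egln2, which encodes PHD1, had a single probe set, 1416533_at. It ran from 9.39 through a median of 9.72 to 10.25 in high altitude mice and from 9.53 through 9.64 to 9.92 in low altitude mice. The groups overlapped almost wholly, and differed by 0.10 ± 0.10 on the log2 scale (SE, limma's adjusted p = 0.809). Hif1an, the asparaginyl hydroxylase gene, gave 0.08 ± 0.12 (SE, adjusted p = 0.884) on its brightest probe set, 1428576_at. Its values ran from 6.88 to 7.95 at high and from 7.07 to 7.64 at low altitude, so the high altitude mice enclosed the low altitude ones. A second Hif1an probe set, 1452845_at, had a difference of 0.19 (limma's unadjusted p = 0.0293, adjusted p = 0.392) and the third, 1447817_at, of -0.06; both lay in the dimmest 35% of probe sets, at the 34.4th and 26.1th percentile of mean level.

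**Figure D3:**
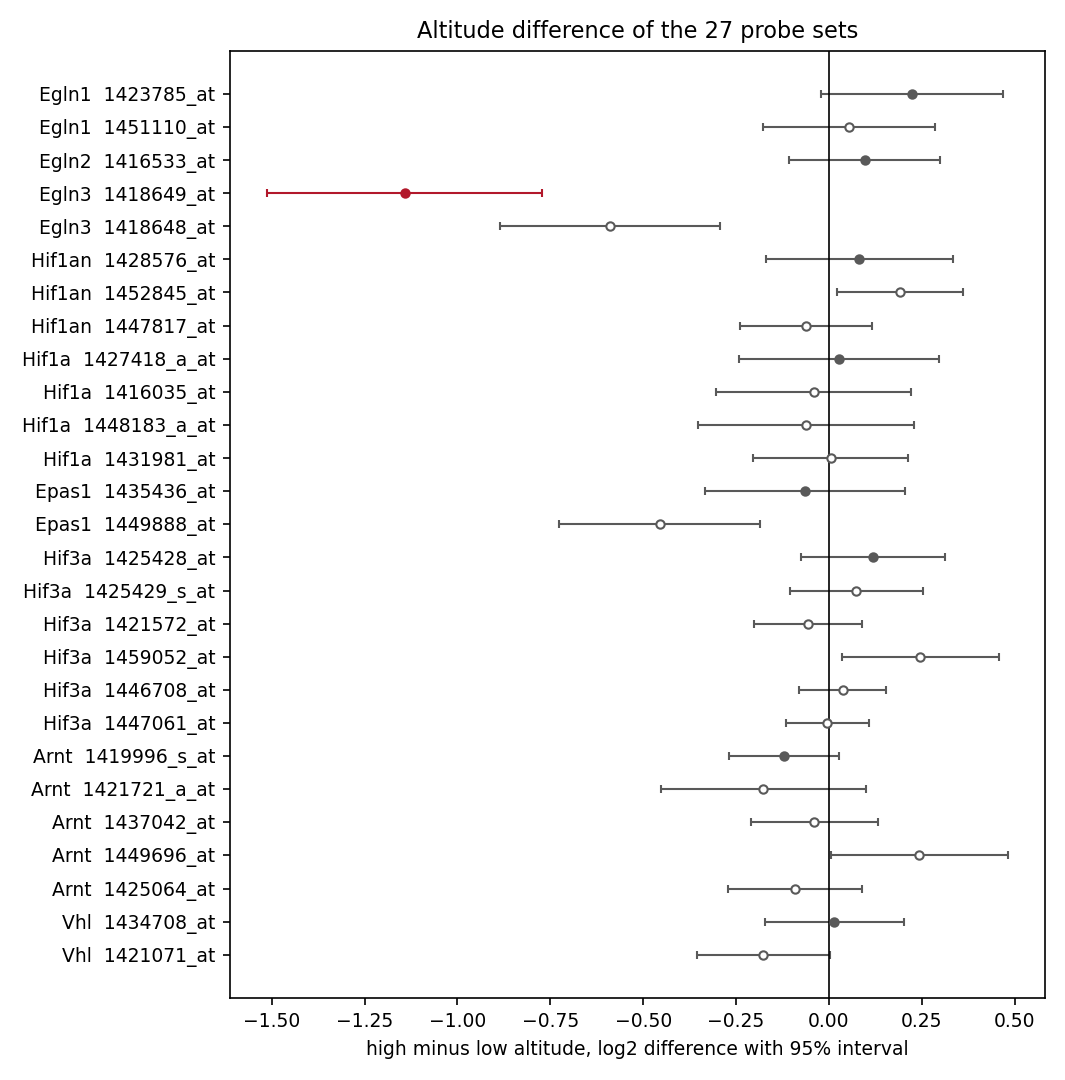
High minus low altitude log2 difference with its 95% interval for each of the 27 probe sets, listed by gene from the hydroxylases through the subunits to Vhl, with the brightest probe set of each gene as a filled point. The 1 probe set past the test, 1418649_at of Egln3 at -1.14, is in red, and the next lowest are 1418648_at of Egln3 at -0.59 and 1449888_at of Epas1 at -0.46.

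The alpha subunit gene Hif1a showed no called difference on any of its 4 probe sets. On the brightest, 1427418_a_at, high altitude mice ran from 9.10 through a median of 9.27 to 10.16 and low altitude mice from 8.86 through 9.33 to 9.71. The log2 difference was 0.03 ± 0.13 (SE, 95% interval -0.24 to 0.30), and the value of 10.16 came from high B1, with the next high altitude mouse at 9.44. Without high B1 the difference was -0.07 (limma's adjusted p = 0.863). The second probe set, 1416035_at, showed the same mouse apart, at 7.41 against 6.34 to 6.70 in the other high altitude mice, and differed by -0.04 between altitudes. High B1 was also the mouse with the largest Actb 3 prime to 5 prime difference, and the part of RNA integrity in its Hif1a level was not tested. The remaining probe sets, 1448183_a_at and 1431981_at, differed by -0.06 and 0.01 and lay below the median level.

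Epas1, which encodes HIF-2 alpha, the subunit that controls erythropoietin and iron genes in the liver, was called on neither of its 2 probe sets. On the brighter, 1435436_at, high altitude mice ran from 10.66 through a median of 10.93 to 11.65 and low altitude mice from 10.56 through 11.13 to 11.32, a log2 difference of -0.07 ± 0.13 (SE, adjusted p = 0.921). On 1449888_at the high altitude mice had 7.14, 6.97 and 7.05 in location A, 6.88, 6.72 and 7.15 in B, and 7.29, 7.44 and 7.05 in C. The low altitude mice had 7.93, 7.28 and 7.61 in A, 7.46, 7.18 and 7.72 in B, and 7.03, 8.08 and 7.49 in C. All 9 high values were below the mean of the low ones, and the location means did not overlap. The difference was -0.46 ± 0.13 (SE, 95% interval -0.73 to -0.18), with limma's unadjusted p at 0.00219 and adjusted p at 0.148, so it did not pass over all probe sets.

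The gap between the 2 Epas1 probe sets averaged 3.94 in high and 3.55 in low altitude mice, a change of 0.39 (95% interval 0.12 to 0.66) that did not pass over the 9010 genes (limma's adjusted p = 0.217). Within the low altitude arrays the 2 probe sets correlated at 0.86 (n = 9), and within the high altitude arrays at 0.25 (n = 9), or 0.75 without high B1 (n = 8). High B1 was highest of its group on 1435436_at, at 11.65, and second lowest on 1449888_at, at 6.88.

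Hif3a encodes an alpha subunit with splice forms that, in cell studies, can inhibit the other subunits. Its brightest probe set, 1425428_at, ran from 6.67 through a median of 6.83 to 7.17 in high altitude mice and from 6.47 through 6.71 to 7.12 in low altitude mice, a log2 difference of 0.12 ± 0.09 (SE, adjusted p = 0.720). The other 5 probe sets differed by -0.06 to 0.25. The largest of these, on 1459052_at, had an unadjusted p of 0.0243 by limma (adjusted p = 0.371) at the 27.1th percentile of mean level. Only 2 of the 6 Hif3a probe sets lay above the median level, and 1447061_at, at the 2.5th percentile, stayed between 2.90 and 3.25 on all 18 arrays.

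Arnt, the partner of all 3 alpha subunits and of the dioxin receptor, had 5 probe sets. The brightest, 1419996_s_at, whose suffix marks probes that may also match other transcripts, ran from 7.41 through a median of 7.57 to 7.86 in high altitude mice and from 7.64 through 7.73 to 8.01 in low altitude mice. Its log2 difference was -0.12 ± 0.07 (SE, adjusted p = 0.584). Of the 4 dimmer probe sets 3 also had negative differences, -0.18 on 1421721_a_at, where the high location means lay wholly below the low ones, -0.04 on 1437042_at and -0.09 on 1425064_at. The other, 1449696_at, had a difference of 0.24 (limma's unadjusted p = 0.0463, adjusted p = 0.460), with the high location means wholly above the low ones. Vhl, the substrate-binding subunit of the ligase, differed by 0.01 ± 0.09 (SE, adjusted p = 0.978) on 1434708_at and by -0.18 ± 0.09 (SE, adjusted p = 0.478) on 1421071_at, where 8 of 9 high values were below the mean of the low ones.

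In all, 1 of the 27 probe sets was called lower and 0 higher at high altitude, against 0.14% and 0.197% of all probe sets. At an unadjusted p under 0.05 there were 6 of 27, against 10.6% of all probe sets, and 2 of these 6 were Egln3. Positive differences numbered 13 and negative ones 14, with a median of -0.00, as over all probe sets. For the brightest probe sets of the other 8 genes the 95% intervals lay between -0.33 and 0.47 on the log2 scale. Differences beyond 1.26-fold lower or 1.38-fold higher thus fell outside all 8 intervals of these brightest probe sets. The intervals treat mice of 1 location nearly as independent, so real location differences can make them too narrow. Intervals of some dimmer probe sets of the same genes reached further, to -0.73 on 1449888_at of Epas1 and to 0.48 on 1449696_at of Arnt. Data were also simulated with the real spread within locations and no differences between locations of an altitude. In them the altitude test called 80% of probe sets given a log2 change of 0.5 and 96% of those given 1. Real location differences can make these shares too high. Smaller changes in these genes could thus have gone uncalled.

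The second comparison asked whether the 3 trapping places of 1 altitude differed. By limma's moderated F test 0 of 27 probe sets passed at high altitude, against 0.226% of all probe sets, and 0 of 27 at low altitude, against 0.0715%. At an unadjusted p under 0.05 there were 4 of 27 at high altitude, against 8.93% of all probe sets, and 0 of 27 at low altitude, against 6.48%. The 4 were 1416533_at of Egln2, 1428576_at and 1447817_at of Hif1an, and 1425064_at of Arnt, named after their values were seen.

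For Egln2 high location B had the highest mean of the 3 high locations, with mice at 10.04, 9.73 and 10.25, against 9.62, 9.65 and 9.39 in high A and 9.72, 9.82 and 9.56 in high C. Low altitude mice had 9.74, 9.56 and 9.68 in A, 9.92, 9.60 and 9.64 in B, and 9.53, 9.71 and 9.55 in C. The F test over the high locations gave an unadjusted p of 0.0179 and an adjusted p of 0.409 by limma. Hif1an on 1428576_at showed the same order of high locations, with means of 7.58 ± 0.34 in B, 7.37 ± 0.28 in C and 7.05 ± 0.15 in A (SD, n = 3 each, limma's adjusted p = 0.525). The dimmer Hif1an probe set 1447817_at ran otherwise, with B lowest at 4.17 ± 0.34, A at 4.37 ± 0.09 and C at 4.57 ± 0.06 (SD, n = 3 each, limma's adjusted p = 0.434). The mice of high location B had the 3 largest Actb 3 prime to 5 prime differences of the 18 arrays, 2.02 in B1, 1.46 in B2 and 1.63 in B3. With the Actb difference as a covariate, the Egln2 and Hif1an probe sets again passed no location test. The part of RNA integrity in their location values was not tested further. Egln3 on 1418649_at, where high C exceeded high A and B, had an adjusted p of 0.665 over the high and 0.981 over the low locations.

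**Figure D4:**
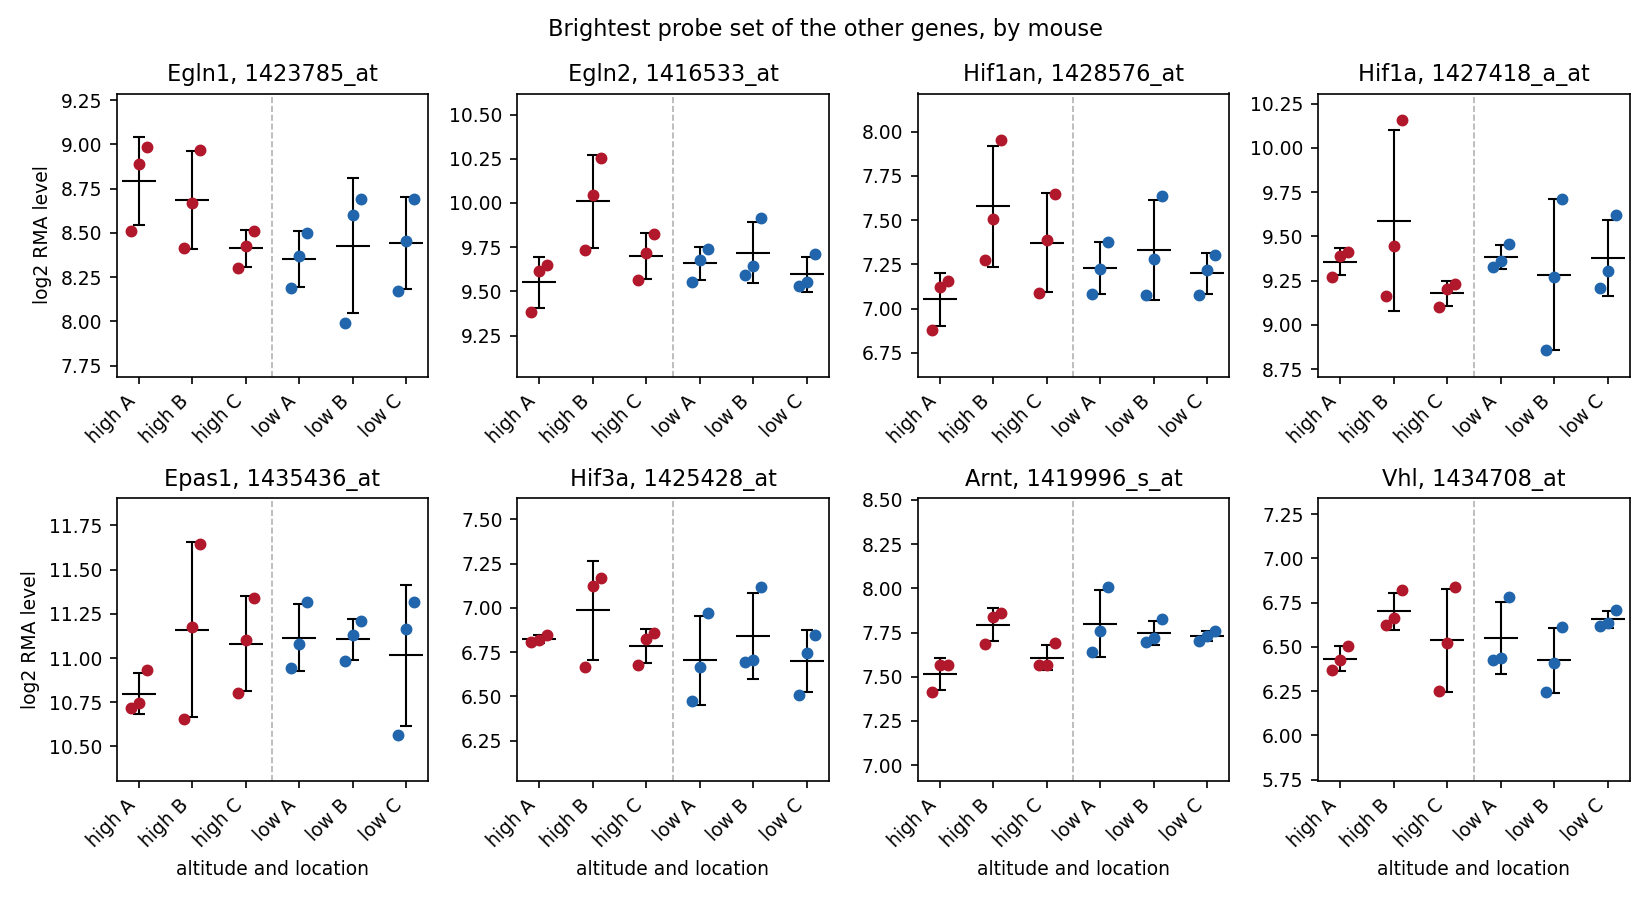
Log2 RMA level of the brightest probe set of the 8 genes other than Egln3 in each mouse, by altitude and trapping location, with the mean and SD of each location (n = 3); every panel spans the same number of log2 units. High and low altitude mice overlap in all 8 panels, and the highest of the high altitude mice came from location B in 6 of them.

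On the brightest probe sets, Egln3 had Pearson correlations with the other members between -0.65, with Hif1an at low altitude, and 0.18, with Hif1an at high altitude, over 9 arrays each that share their labelling and normalization. The 5 genes most like Egln3, by the lower of the 2 correlations within an altitude among all genes, were Poldip2 (0.75 high, 0.89 low), Sox6os (0.73, 0.79), C87198 (0.70, 0.73), Arhgef10l (0.70, 0.78) and Hars2 (0.70, 0.70). Of these, Sox6os was also called lower at high altitude, at -0.31 on the log2 scale (limma's adjusted p = 0.0421). The 5 were picked as the top of a ranking over all genes, and how often such values arise by chance was not tested. Egln3's own second probe set correlated less with the brightest one than each of the 5, at 0.40 over the high and 0.65 over the low altitude arrays.

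Genes that act around these 9 were counted on their brightest probe sets, of which 0.225% were called higher and 0.137% lower over all 18193 genes, and 11.3% had an unadjusted p under 0.05. Of 13 measured partners of Vhl and factors of alpha subunit turnover 0 were called by limma, with 10 negative differences, a median of -0.10 against 0.00 over all genes, and 3 at an unadjusted p under 0.05. Siah2, a ubiquitin ligase known to target the Egln3 protein, had 7.13 ± 0.23 in high and 7.50 ± 0.18 in low altitude mice (SD, n = 9 each), a log2 difference of -0.37 ± 0.10 (SE, adjusted p = 0.109). Uba3, a subunit of the enzyme that activates Nedd8 for cullin ligases, differed by -0.32 (limma's adjusted p = 0.180) and Nedd8 by -0.12 (adjusted p = 0.698). Rbx1, the RING subunit of the Vhl ligase, differed by -0.25 (limma's adjusted p = 0.220). The Rbx1 probe set had means of 5.54 at high and 5.79 at low altitude, near the median level of 5.69. Of the 18 fits that each left out 1 mouse, Siah2 passed in 1, without high C2 (log2 difference -0.43, limma's adjusted p = 0.0474). It stayed uncalled in the other 17, and in all 6 fits that left out a location.

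Of 13 measured coactivators and partner proteins 0 were called by limma, with 0 at an unadjusted p under 0.05 and a median of 0.01. The coactivator inhibitor gene Cited2, itself a HIF target, differed by -0.20 ± 0.18 (SE), Cited4 by -0.10, Ncoa2 by 0.16 and the acetyltransferase gene Crebbp by -0.12, with adjusted p from 0.654 to 0.794. Cited4 lay below the median level, with means of 4.21 at high and 4.31 at low altitude. Among 33 other enzymes that use oxygen and 2-oxoglutarate, 1 was called. Alkbh5, a demethylase of N6-methyladenosine in RNA, had 10.26 ± 0.21 in high and 9.64 ± 0.36 in low altitude mice (SD, n = 9 each), a log2 difference of 0.62 ± 0.13 (SE, adjusted p = 0.0451). All 9 high values exceeded the mean of the low ones. The call was lost without any 1 of 14 of the 18 mice, all but high A1, high B3, low C1 and low C3, with adjusted p up to 0.0896. It was also lost without low location A or B or high location A or C (adjusted p up to 0.204), with the mouse number as a block (0.109), with the Actb covariate (0.0649), with arrays centred on their medians (0.0708), and with 1 mean per location (0.413). Fto, the other such demethylase, differed by -0.20 (adjusted p = 0.403), Asph by -0.17 and P4htm, a membrane-bound prolyl hydroxylase, by -0.12. P4htm also lay below the median level, with means of 4.41 at high and 4.53 at low altitude.

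Of 38 measured HIF target genes Egln3 was the 1 called, with 19 differences positive and 19 negative. Without Egln1 and Egln3, 0 of 36 were called by limma and 2 had an unadjusted p under 0.05, with a median of -0.00. Vldlr, a lipoprotein receptor gene, had 6.45 ± 1.23 in high and 4.93 ± 0.71 in low altitude mice (SD, n = 9 each), a difference of 1.52 ± 0.42 (SE, adjusted p = 0.135). Its high altitude mice spread from 4.79 to 8.43 and so overlapped the low altitude range of 4.30 to 6.36. The low altitude mean of Vldlr lay below the median level of 5.69, and the high altitude mean above it. Pdk1, which restrains pyruvate entry to mitochondria, differed by 0.44 ± 0.19 (SE, adjusted p = 0.388), and the glucose transporter gene Slc2a3 by 0.37 ± 0.18 (SE, adjusted p = 0.485). Slc2a3 lay below the median level, with means of 5.07 at high and 4.70 at low altitude. The suffixes of the Vldlr and Slc2a3 probe sets mark probes that may also match other transcripts.

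**Figure D5:**
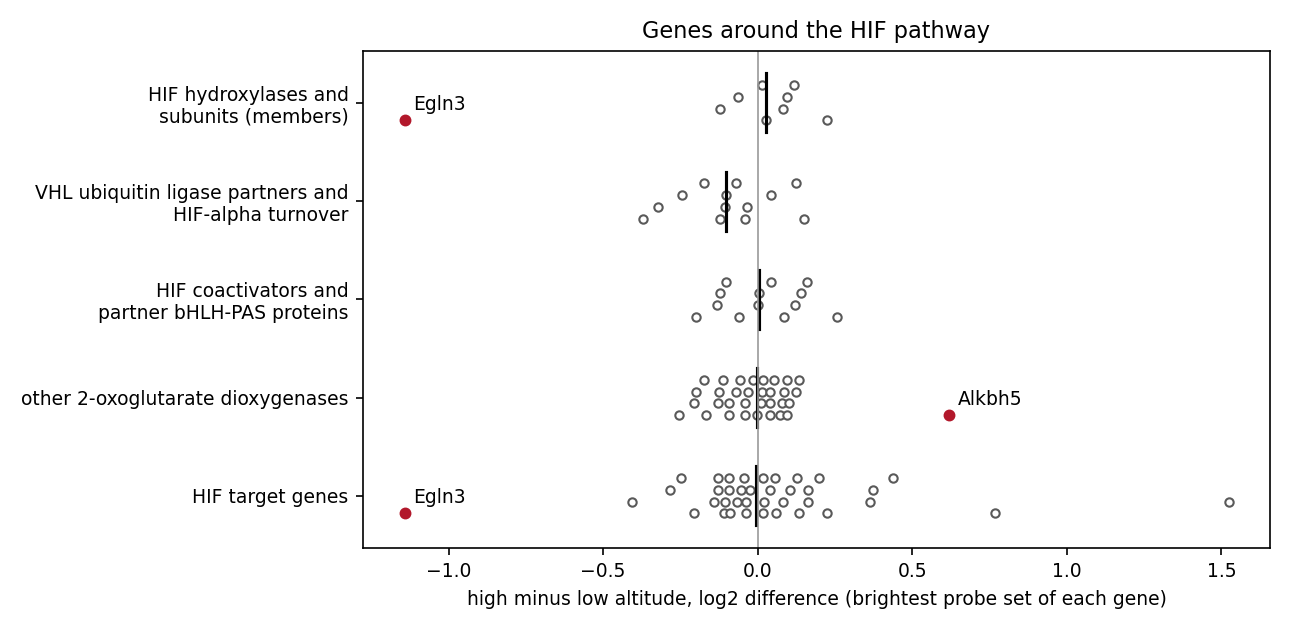
High minus low altitude log2 difference of each measured gene in 5 lists (brightest probe set, 1 point per gene), with a bar at each list's median and genes past the test in red with their symbols. Egln3 at -1.14, a member of 2 lists, and Alkbh5 at 0.62 are the genes past the test, and the list medians lie between -0.10 and 0.03.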

How the data were processed

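Biotin-labelled RNA from 18 livers was run on Affymetrix arrays, 1 per mouse, per the labels. For 45101 probe sets the authors deposited log2 values made with RMA in the R package affy, per the submitters' processing notes; no versions are named there. Detection calls, scan dates and probe sequences were not used here. GEO's platform annotation gave 34945 probe sets 1 gene symbol, 932 several and 9160 none, and 64 were controls.

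Altitude was tested with limma 3.58.1 in R 4.3.3 (mean-variance trend, two-sided, location as a random block with a consensus correlation of 0.00465), with Benjamini-Hochberg adjustment at 0.05 over all 34945 probe sets; 118 passed. This treats mice of 1 location nearly as independent. Locations were tested by moderated F in a fit of 6 location means. No dim probe sets were removed. A gene in a list stands as its probe set with the highest mean; the 4 genes with the smallest p were named per pathway list, and 5 genes by likeness to Egln3. The members and lists were chosen with earlier results of these data known. Listed genes with no probe set of their own, Epo among them, were not analysed here. Simulated data tested the fits. Replicates are separate mice, and their number limits the precision (median SE 0.0860). Mouse numbers in the titles do not pair mice: deviations of 40 same-numbered pairs correlated at -0.01 on average, with 9 above 0.1. Alternatives covered scaling, filters, moderation, array weights, blocks, a covariate, and leaving out mice and locations. Python 3.11.15 with pandas 2.3.3 and matplotlib 3.10.9 made tables and figures.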

Additional observations from a re-analysis of the deposited data

Results flagged for a closer look

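Among the 54 sets of 9 mice checked (27 probe sets at 2 altitudes), 8 held a mouse whose gap to the nearest other was large against the whole range. For independent, normally distributed values chance gives such a mouse in about 1 of 20 sets. High B1 was such a mouse on 3 probe sets, with 10.16 and 7.41 on the 2 brightest of Hif1a, and 7.05 against at most 6.57 in the other high altitude mice on 1451110_at of Egln1. High A1 had 6.06 on 1448183_a_at of Hif1a, where the next mouse had 5.51. High B3 had 3.78 on 1447817_at of Hif1an, where the next lowest had 4.27. Low C1 had 10.56 on 1435436_at of Epas1, below the next lowest at 10.95. Low B2 had 7.07 on 1425429_s_at and low A2 4.04 on 1446708_at, both of Hif3a. High B1 and high A1 had the largest and the smallest Actb 3 prime to 5 prime difference of the 18 arrays, 2.02 and 0.84, and the part of RNA integrity in these values was not tested. Neither Egln3 probe set held such a mouse. The 54 sets share the 18 arrays, and some probe sets of a gene correlate, so the sets are not independent. The share over all probe sets was not counted, so no excess in these genes can be read from the 8.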

How the results depend on the processing

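The 118 probe sets called between altitudes became 66 with 1 probe set per gene, 219 with array weights, 50 with the mouse number as a replicate block, 381 with 6 fixed location means and 0 with 1 mean per location. Leaving out 1 mouse gave 35 to 142 calls and 1 location 34 to 184; the count moved by over 1.5 times without high B1 (74), low A2 (59), low B3 (35) or low C2 (68), and without low location B (52) or C (34) or high location A (76) or B (184). Of the 27 probe sets, 1 or 2 were called in these leave-outs, and 0 with 1 mean per location. The 79 calls between high locations became 38 with arrays centred on their medians, 326 with array weights, 21 with the Actb covariate and 46 with the replicate block, and 32 to 97 without 1 mouse. The 25 between low locations became 13 with 1 probe set per gene, 98 with array weights, and 10 to 46 without 1 mouse. None of the 27 passed a location test under any of these.

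With the replicate block Egln3 on 1418649_at differed by -1.07 (limma's adjusted p = 0.0240), and the block changed the call of no probe set of the 9 genes; 4 of 18 mice correlated best with their own number. The gap between the Egln3 probe sets, -0.55, did not pass with 1 mean per location (exact permutation p = 0.1, the smallest that 3 against 3 can give) or in the fit over all genes (adjusted p = 0.141).

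Signs turned for 13 probe sets, none of them called. Arrays centred on their medians turned 1431981_at of Hif1a to -0.00412; a second quantile normalization turned 1447061_at of Hif3a to 0.00115, and the replicate block to 0.0101. Array weights gave -0.0366 for 1427418_a_at of Hif1a and -0.00946 for 1434708_at of Vhl. The Actb covariate gave -0.0686, 0.0879 and -0.0433 for 1427418_a_at, 1448183_a_at and 1431981_at of Hif1a, -0.0241 for 1428576_at of Hif1an and -0.0216 for 1434708_at of Vhl. Leaving out mice or locations gave -0.133 to 0.0264 for 1437042_at of Arnt, -0.0157 to 0.0961 for 1451110_at of Egln1, -0.0319 to 0.197 for Egln2 and -0.144 to 0.0420 for 1435436_at of Epas1. The ranges were -0.0802 to 0.125, -0.143 to 0.0570, -0.154 to 0.0180 and -0.0781 to 0.0825 for the 4 Hif1a probe sets by brightness, and -0.0400 to 0.223 and -0.162 to 0.0384 for 1428576_at and 1447817_at of Hif1an. They were -0.0109 to 0.0947 and -0.0336 to 0.0228 for 1446708_at and 1447061_at of Hif3a, and -0.0574 to 0.0768 for 1434708_at of Vhl. The cause of these turns was not tested. Dim probe sets limit what can be seen, since RMA compresses them and detection calls were not used.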
